A study of Mus musculus with 12 samples.

Results

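The 10 genes described here are 7 subunits of the transcription factor AP-1 (Fos, Fosb, Fosl1, Fosl2, Jun, Junb and Jund) and 3 immediate early genes (Egr1, Ier2 and Klf6). They were picked by gene symbol from the 55450 genes in the tables, with earlier results of these data known. The study sequenced mRNA of primary mouse hepatocytes to compare loss and gain of the liver transcription factor CEBPA, with 12 libraries in 4 groups of 3. KO hepatocytes lacked Cebpa after deletion with Cre under the albumin promoter (Cebpa{delta}Alb), which is active in hepatocytes, and WT hepatocytes carried the floxed Cebpa alleles (Cebpafl/fl) without deletion. OE hepatocytes received an adenovirus for mouse Cebpa (Ad-m-Cebpa), and GFP hepatocytes received an adenovirus for green fluorescent protein (Ad-GFP). The floxed alleles are therefore shared by KO and WT, and adenovirus exposure is shared by OE and GFP. The labels give no mouse genotype for OE and GFP, no age, no length of virus exposure and no statement on whether KO and WT cells were cultured. For other assays the study names WT hepatocytes as the cells given these viruses and states an exposure time, and it gives an age for mice used in a further assay, but it does not tie these to the sequenced libraries. Replicate numbers in the labels stand for biological replicates without naming separate mice or preparations. The p values may therefore not cover the spread between mice, and may cover only that between cultures of the same preparation. Libraries are called by group and replicate number, such as KO1 and WT1.

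AP-1 is a dimer of basic leucine zipper proteins, in which a Fos protein pairs with a Jun protein or Jun proteins pair with each other. Most of its genes are immediate early genes, which are transcribed within minutes of growth factor, cytokine or stress signals, through MAP kinases and preformed factors such as SRF and CREB, and whose mRNAs decay quickly. In liver they are induced by partial hepatectomy, by injury and by the collagenase digestion that frees hepatocytes, and Jun is needed for normal liver development and regeneration. Handling of the tissue before lysis is therefore a known source of variation in these mRNAs, and the values of single libraries are given for that reason. In RNA from many cells, fewer cells that express a gene and less RNA in each cell cannot be told apart.

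Library totals were 20368564 to 23304230 counts in KO, 20966339 to 23261800 in WT, 20160081 to 23193817 in OE and 20467466 to 22132226 in GFP. Levels are CPM, counts relative to library size, scaled by TMM, which sets the bulk of genes equal between libraries. The TMM factors were 0.61 to 0.6682 in KO and WT libraries, against 1.481 to 1.638 in OE and GFP libraries, so that levels set between the knockout and the virus experiment depend on this scaling. Cebpa, the targeted gene, had 1.495, 0.389 and 0.258 CPM in KO, against 481, 362 and 453 CPM in WT. With adenovirus it had 8622, 8790 and 9073 CPM in OE, against 30.5, 32.4 and 34.6 CPM in GFP. KO3 differed more from KO1 and KO2 over all genes (chi-square per degree of freedom of the counts 127.6 and 122.9) than these from each other (64.8). The 13 hepatocyte markers summed to 226098 to 284242 CPM in KO, 209159 to 227401 in WT, 9022 to 9555 in OE and 22956 to 23599 in GFP. All 13 of them were lower in GFP than in WT (median log2 fold change -4.22), and the part of this in the differences between those groups was not tested. The 13 lymphocyte and neutrophil markers summed to 338 to 403 CPM in OE, against 0.0327 to 0.18 in GFP. That sum came from S100a8 and S100a9, while Ly6g was at 0 in every library and Csf3r had at most 1 count in an OE library.

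The 10 genes lie on 8 chromosomes (GENCODE M21, mm10). Fos spans chr12:85473890-85477273 on the plus strand, Fosb chr7:19302696-19310051 on the minus strand, Fosl1 chr19:5447547-5455946 on the plus strand and Fosl2 chr5:32135801-32157842 on the plus strand. Jun (chr4:95049034-95052222, minus strand) and Jund (chr8:70698949-70700616, plus strand) have a single exon. Junb (chr8:84974484-84978718, minus strand) and Ier2 (chr8:84661331-84662852, minus strand) lie on the same chromosome as Jund. Ier2 and the longest transcript of Junb also have a single exon. Klf6 spans chr13:5861482-5870394 on the plus strand. A gene on the opposite strand overlaps Fosl1 (Ccdc85b), Jun (Junos), Junb (Prdx2) and Jund (Gm11175). The library kit keeps strand, but whether the counting used it is not given in the sources used here, so that reads of those pairs may not have been told apart.

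RefSeq promoter windows (GRCm38.p6, 250 bases before to 50 after the start) were matched for 7 of the 10 genes, and those searched for motifs on both strands were Fos, Fosb, Fosl2, Jun, Junb, Jund and Klf6. The 250 bases before the start are shown for Fos and Jun, the pair after which AP-1 is described, and for Klf6, which among the genes with counts in WT differed most between GFP and WT. The stretches are chr12:85473640-85473889 (plus strand), chr4:95052223-95052472 (minus strand) and chr13:5861239-5861488 (plus strand). Capitals mark a TATAAA box in Fos, CCAAT and TGACATCA in Jun, and CCAAT (on the other strand ATTGG) and TGACATCA in Klf6.
Fos: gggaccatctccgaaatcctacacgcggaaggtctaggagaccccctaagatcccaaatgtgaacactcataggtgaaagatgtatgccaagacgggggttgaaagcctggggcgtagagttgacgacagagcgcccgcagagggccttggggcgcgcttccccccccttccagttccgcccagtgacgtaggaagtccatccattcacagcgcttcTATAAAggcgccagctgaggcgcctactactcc
Jun: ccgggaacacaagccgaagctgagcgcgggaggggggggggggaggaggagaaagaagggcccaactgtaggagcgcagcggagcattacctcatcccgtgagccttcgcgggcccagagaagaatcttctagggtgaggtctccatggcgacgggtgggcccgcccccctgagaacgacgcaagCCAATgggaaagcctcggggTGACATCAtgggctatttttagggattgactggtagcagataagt
Klf6: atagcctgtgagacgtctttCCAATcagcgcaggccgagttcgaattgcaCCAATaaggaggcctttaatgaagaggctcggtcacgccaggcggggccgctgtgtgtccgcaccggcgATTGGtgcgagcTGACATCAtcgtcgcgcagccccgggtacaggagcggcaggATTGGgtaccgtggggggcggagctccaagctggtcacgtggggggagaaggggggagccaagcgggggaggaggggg
In Fos the TATAAA lies at -33 to -28 from the start. In Jun the CCAAT lies at -65 to -61 and the TGACATCA, an octamer known to bind Jun and ATF2, at -45 to -38. In Klf6 the TGACATCA lies at -119 to -112. The TGACATCA was in 2 of the 7 windows, against 3.62% of 32851 RefSeq windows. CCAAT was in 3 of the 7 (37.4% of all windows) and TATAAA in 2 (13.6%). TTGCNNAA, a C/EBP core, was in 1 window, that of Jund, which lies before the GENCODE start of the gene, and in 10.8% of all windows. None of the 7 held TGANTCA (7.81%), TGACGTCA (1.79%) or a CArG box (1.63%), which says only that these letters are not in these windows.

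In KO against WT, 9 of the 10 genes had enough counts to be tested and 0 passed an adjusted p of 0.05 (edgeR quasi-likelihood test, Benjamini-Hochberg over all genes), where 1.71% of 11846 genes tested did. With p below 0.05 before adjustment there were 3, Egr1, Ier2 and Klf6 (13.9% of all genes tested), and DESeq2 called 2, Egr1 lower and Klf6 higher (5.26% of all genes). In OE against GFP, 10 of 10 passed, where 86.6% of 14889 genes did, so that the share called is close to the background. Fosb, Fosl1, Fosl2, Jun and Egr1 were higher (5 of 10, background 43.9%) and Fos, Junb, Jund and Ier2 were lower. Klf6 passed as the fifth lower gene (5 of 10, background 42.7%), but its direction turned with the scaling, and library totals gave 5 higher and 4 lower. The change was over 2-fold for 6 of 10 (background 42.0%). In GFP against WT, 10 of 10 passed, where 83.3% of 13760 genes did. Fosl1, Fosl2, Jund and Klf6 were higher (4 of 10, background 45.0%), the other 6 were lower (background 38.4%), and 9 of 10 differed over 2-fold (background 50.3%). With library totals 4 were higher (background 75.7%), 6 lower (15.1%) and 7 over 2-fold (70.4%), with Jun at 1.68-fold, Junb at 1.26-fold and Ier2 at 1.66-fold. Fosl1 passed the filter on low counts through GFP alone, so its difference was set by the filter, and of the other 9 genes 3 were higher and 6 lower under both scalings. GFP and WT differ in virus, in preparation and possibly in culture and in allele at once, which cannot be told apart. This comparison shares its GFP and WT libraries with the other comparisons. The median log2 fold change of the genes was -0.218 in KO against WT (all genes 0.00744), 0.171 in OE against GFP (all genes 0.00526) and -1.77 in GFP against WT (all genes 0.129). With library totals the last of these was -0.533 (all genes 1.36).

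**Figure D1:**
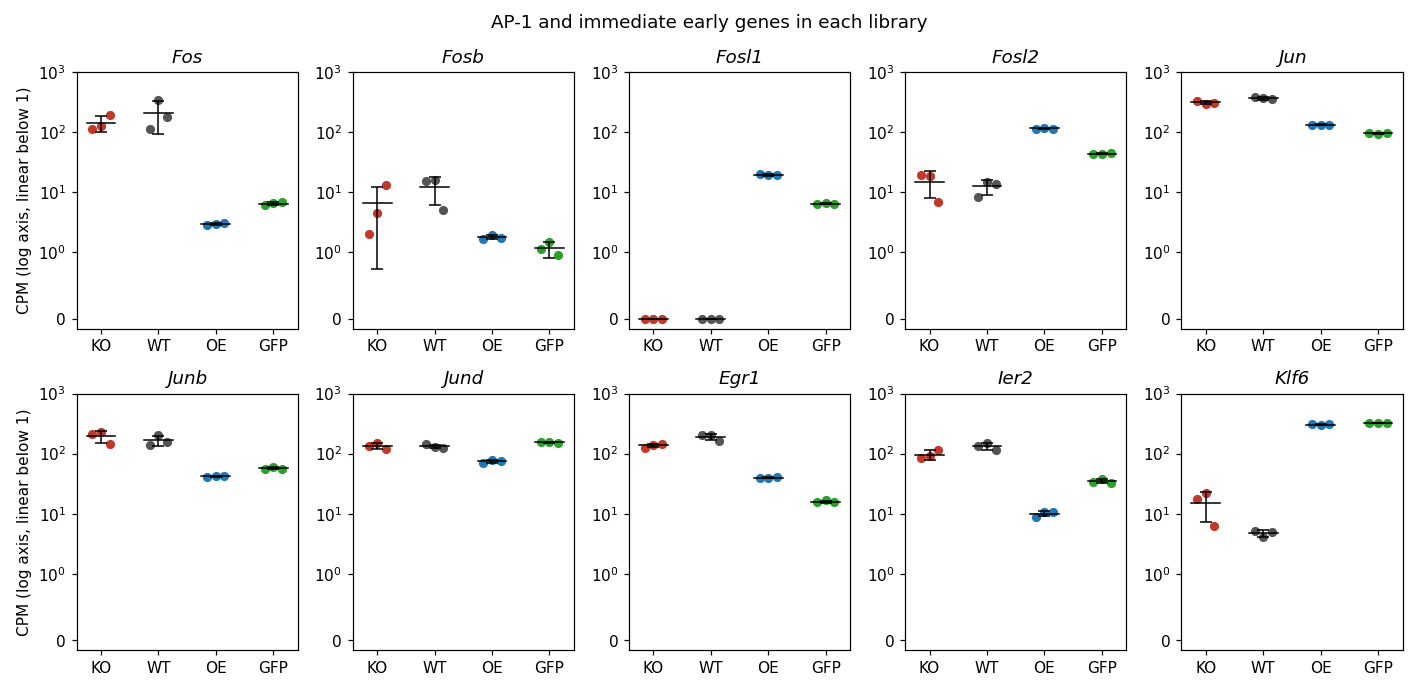
Level of each gene in each library, as TMM-scaled CPM on a log axis that is linear below 1. Points are libraries, the bar is the group mean and the whiskers are the SD (n = 3 each). On this scale Fos, Fosb, Jun, Junb, Egr1 and Ier2 sit higher in KO and WT than in OE and GFP. Fosl1 is at 0 in all KO and WT libraries, and Klf6 sits at 295 to 329 CPM in OE and GFP, against 4.07 to 21.8 CPM in KO and WT.

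Fos, the founding subunit and a textbook immediate early gene, had 113, 124 and 192 CPM in KO, against 111, 338 and 179 CPM in WT. The WT libraries spanned the KO libraries, with WT2 the highest of the 6, and the log2 fold change was -0.53 ± 0.40 (SE, adjusted p = 0.58). In the virus experiment Fos had 2.78, 2.89 and 3.00 CPM in OE, against 5.95, 6.46 and 6.73 CPM in GFP. The OE libraries were all below the GFP libraries (OE and GFP did not overlap for 86.9% of genes tested), and Fos fell by 1.16 ± 0.10 on the log2 scale (edgeR, adjusted p = 7.99e-08). Those levels rest on 99 to 104 counts in OE and 188 to 215 counts in GFP. Between the control groups Fos was 33.6-fold lower in GFP than in WT (log2 fold change -5.07 ± 0.42, adjusted p = 7.81e-06). With library totals in place of TMM the same difference was -3.82, so that its direction held and its size did not.

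Fosb, the closest relative of Fos, had 2.02, 4.52 and 13.0 CPM in KO, against 15.1, 15.8 and 5.07 CPM in WT. The groups overlapped through KO3 and WT3, and the log2 fold change was -0.85 ± 0.67 (adjusted p = 0.605). OE libraries had 1.66, 1.91 and 1.70 CPM (56 to 66 counts), against 1.11, 1.47 and 0.947 CPM (29 to 49 counts) in GFP. The log2 fold change was 0.55 ± 0.20 (edgeR, adjusted p = 0.0206). That call was lost without GFP1 (0.0605), GFP3 (0.087) or OE2 (0.065), and in the fit of all 12 libraries (0.428). In GFP against WT it was -3.37 ± 0.44 (adjusted p = 0.000137), and -2.14 with library totals.

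Fosl1, which encodes FRA-1, a Fos protein without the transactivation domain of Fos, was the one subunit with no count in 6 libraries. It had 0 of 65597098 counts in KO and 0 of 67370030 in WT, which allows up to 0.0719 and 0.0686 CPM (3 counts over the group, counting error only). In OE it had 19.9, 18.9 and 19.0 CPM, against 6.26, 6.55 and 6.40 CPM in GFP. The 2 groups did not overlap, as for 86.9% of genes tested, and Fosl1 was 2.96-fold higher in OE (log2 fold change 1.57 ± 0.06, edgeR, adjusted p = 7.08e-12). Set against the limit in WT, its level was at least 280-fold higher in OE and at least 93.4-fold higher in GFP. Fosl1 was not tested in KO against WT.

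Fosl2, which encodes the related FRA-2, had 19.4, 18.4 and 6.78 CPM in KO, against 8.28, 14.9 and 13.8 CPM in WT. KO1 and KO2 were the highest of these libraries and KO3 the lowest, with a log2 fold change of 0.29 ± 0.41 (adjusted p = 0.778). With the Cebpa virus it reached 114, 115 and 114 CPM in OE, against 43.0, 42.1 and 44.2 CPM in GFP. Fosl2 rose 2.61-fold in OE, with libraries within each group far closer than the groups (log2 fold change 1.39 ± 0.03, edgeR, adjusted p = 7.36e-15). It was also higher in GFP than in WT (1.77 ± 0.17, adjusted p = 2.46e-05, and 3.01 with library totals).

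Jun, the Jun subunit that is the usual partner of Fos, had 331, 295 and 308 CPM in KO, against 387, 365 and 347 CPM in WT. Every KO library was below every WT library (KO and WT did not overlap for 19.8% of 11846 genes tested), but the log2 fold change of -0.22 ± 0.10 did not pass (adjusted p = 0.388). In OE it had 132, 129 and 132 CPM, against 94.7, 94.0 and 95.4 CPM in GFP, and rose 1.36-fold (log2 fold change 0.45 ± 0.03, edgeR, adjusted p = 9.72e-10). Jun was lower in GFP than in WT (-1.99 ± 0.06, adjusted p = 2.87e-08, and -0.75 with library totals).

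Junb, which can oppose Jun at shared promoters, had 214, 228 and 143 CPM in KO, against 141, 201 and 157 CPM in WT. These groups overlapped through KO3 (log2 fold change 0.25 ± 0.21, adjusted p = 0.63). Junb had 40.9, 42.7 and 41.9 CPM in OE, against 54.9, 60.0 and 56.5 CPM in GFP, and fell by 0.47 ± 0.04 on the log2 scale (edgeR, adjusted p = 4.07e-08). In GFP against WT the log2 fold change was -1.58 ± 0.12 (adjusted p = 6.12e-06), -0.33 with library totals, and -0.12 on log2(TPM + 1), where limma did not call it (adjusted p = 0.348).

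Jund, the Jun subunit that is present in resting cells and less inducible than the others, had 133, 152 and 120.4 CPM in KO, against 142, 131 and 123 CPM in WT. These ranges overlapped (log2 fold change 0.05 ± 0.13, adjusted p = 0.891), and the sign turned with library totals (-0.00799). Jund had 69.6, 79.4 and 75.7 CPM in OE, against 156, 159 and 152 CPM in GFP, and was 2.11-fold lower (log2 fold change -1.08 ± 0.04, edgeR, adjusted p = 5.19e-12). In GFP against WT the log2 fold change was 0.20 ± 0.07 (adjusted p = 0.0206), and 1.44 with library totals. That call was lost without GFP1 (0.0542) or GFP2 (0.063).

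Egr1, a zinc finger factor induced through SRF and ELK1, spans 34859823 to 34864984 of chromosome 18, plus strand. It had 126, 141 and 144 CPM in KO, against 208, 202 and 163 CPM in WT. Every KO library was below every WT library (KO and WT did not overlap for 19.8% of genes tested). The log2 fold change was -0.46 ± 0.12 (unadjusted p = 0.00709, adjusted p = 0.151), and it passed in DESeq2 (0.0329) and in the fit of all 12 libraries (0.00722). The latter took 1 dispersion per gene from both experiments and called 587 genes higher and 618 lower of 15326. In OE Egr1 had 39.5, 39.3 and 40.3 CPM, against 15.5, 16.6 and 15.7 CPM in GFP, and was 2.46-fold higher (log2 fold change 1.30 ± 0.05, edgeR, adjusted p = 1.84e-12). It was lower in GFP than in WT (-3.62 ± 0.11, adjusted p = 1.85e-08, and -2.38 with library totals).

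Ier2, an immediate early gene for a nuclear protein, had 83.3, 90.3 and 115 CPM in KO, against 135, 149.7 and 114 CPM in WT. KO3 was just above WT3, and the log2 fold change was -0.45 ± 0.15 (unadjusted p = 0.0202, adjusted p = 0.252). In OE it had 8.86, 10.6 and 10.5 CPM, against 34.1, 37.6 and 32.8 CPM in GFP. This 3.54-fold fall was the largest of the 10 genes (log2 fold change -1.82 ± 0.07, edgeR, adjusted p = 7.56e-12). Ier2 was lower in GFP than in WT (-1.97 ± 0.11, adjusted p = 6.18e-07, and -0.73 with library totals).

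Klf6, a Krüppel-like factor induced by liver injury and by growth factors, had 17.5, 21.8 and 6.26 CPM in KO, against 5.21, 4.07 and 4.94 CPM in WT. All 3 KO libraries were above all WT libraries, with KO3 close to WT (KO and WT did not overlap for 19.8% of genes tested). The log2 fold change was 1.70 ± 0.44 (adjusted p = 0.141), and it passed in DESeq2 (0.00329), in the fit of all 12 libraries (0.0122) and without KO3 (2.08, adjusted p = 0.00598). The fit of all 12 libraries took 1 dispersion per gene from both experiments, and its SE for Klf6 was 0.34. In OE Klf6 had 312, 295 and 309 CPM, against 329, 323 and 320.1 CPM in GFP. The log2 fold change of -0.11 ± 0.03 passed (edgeR, adjusted p = 0.00476), but it was 0.03 with library totals (adjusted p = 0.285) and 0.22 on log2(TPM + 1) (limma, adjusted p = 0.00239), so that no direction is given. Klf6 was 66.7-fold higher in GFP than in WT (log2 fold change 6.06 ± 0.09, adjusted p = 1.64e-09, and 7.30 with library totals). It was the gene of the 10 with counts in WT that differed most between these groups.

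**Figure D2:**
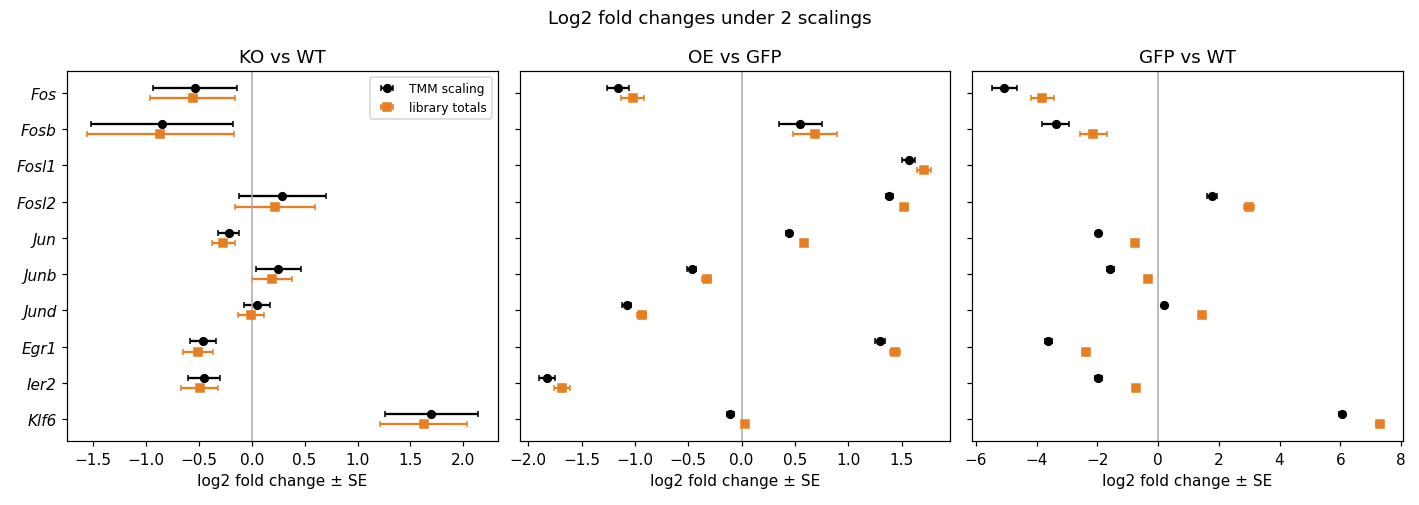
Log2 fold change ± SE of each gene (rows) in KO against WT, OE against GFP and GFP against WT, with TMM scaling (black circles) and with library totals (orange squares). Fosl1 is drawn only for OE against GFP, since it had no count in KO and WT. The 2 scalings nearly coincide in KO against WT, and in GFP against WT they differ for every gene drawn, for example -5.07 and -3.82 for Fos.

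The share of each subunit in its family does not depend on the scaling between libraries, and it was taken from TPM, which is per length. Fos made up 93.6, 94.0 and 95.5% of the summed TPM of Fos, Fosb, Fosl1 and Fosl2 in KO, and 92.6, 96.1 and 96.0% in WT. In OE it made up 3.93, 4.31 and 4.24%, against 19.1, 21.3 and 28.2% in GFP. The Fos family was thus mostly Fos in KO and WT, and mostly Fosl2 and Fosl1 in OE and GFP. Fosl2 held 61.8, 62.9 and 63.7% in OE, against 55.8, 49.2 and 45.3% in GFP. Fosl1 held 32.8, 31.3 and 30.8% in OE, against 22.7, 26.5 and 24.9% in GFP. Fosb held 0.797 to 5.68% in the 12 libraries. By counts in place of TPM, an alternative chosen after seeing the data, the share of Fos averaged 86.4% in KO, 88.2% in WT, 2.1% in OE and 11.2% in GFP, which keeps that order.

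In the Jun family, Jund made up 40.5, 43.7 and 42.2% of the summed TPM in OE, against 61.7, 61.1 and 60.7% in GFP. Jun made up 37.8, 34.9 and 36.4% in OE, against 18.5, 17.8 and 18.7% in GFP. In KO and WT no subunit held most of the TPM (by counts Jun averaged 55.1% in WT). Jun made up 33.3, 28.8 and 37.7% in KO, against 41.3, 36.4 and 39.1% in WT. The ratio of the summed Fos family to the summed Jun family was 0.318, 0.305 and 0.307 in OE, against 0.0965, 0.0923 and 0.11 in GFP. It was 0.231, 0.239 and 0.449 in KO, against 0.245, 0.631 and 0.385 in WT. By counts the ratio was 0.571, 0.552 and 0.549 in OE, against 0.184, 0.181 and 0.191 in GFP, and averaged 0.262 in KO and 0.348 in WT, so that OE stood below the WT mean by TPM and above it by counts. Exact permutation tests (two-sided) of the shares of Fos, Fosl2, Jun and Jund gave p = 0.1 (adjusted 0.15 over 12 tests) in OE against GFP and in GFP against WT, the smallest p that 3 against 3 libraries allow, and p = 0.2 to 0.9 in KO against WT.

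**Figure D3:**
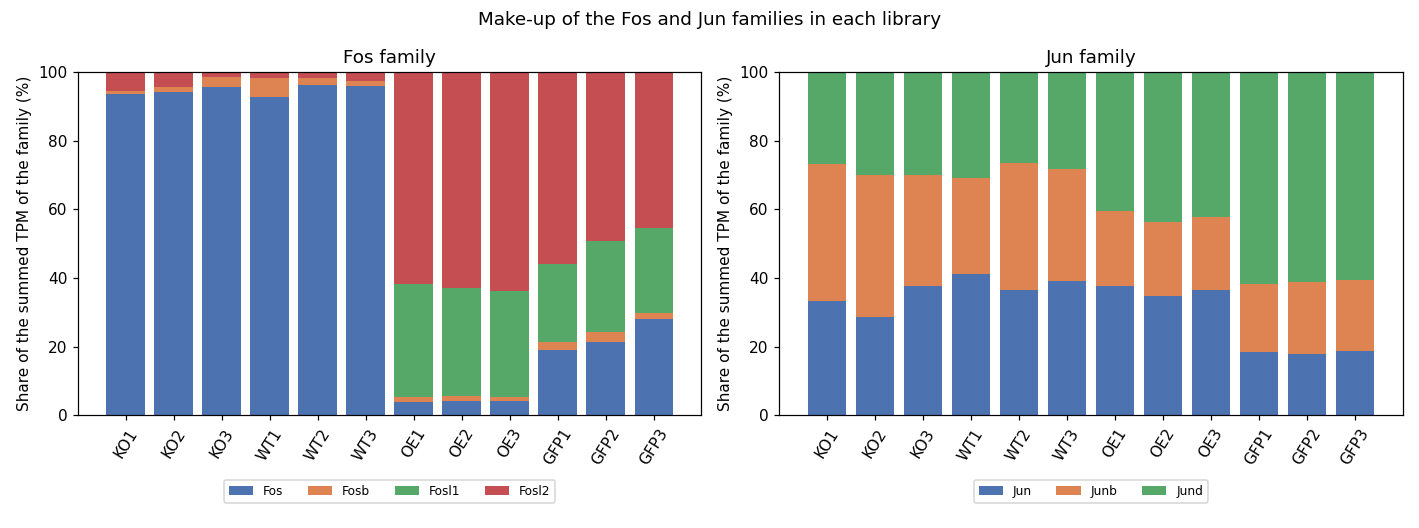
Share of each subunit in the summed TPM (percent) of the Fos family (left) and the Jun family (right) in each of the 12 libraries. Fos fills 92.6 to 96.1% of its family in KO and WT libraries and 3.93 to 28.2% in OE and GFP libraries, and Jund takes 60.7 to 61.7% of its family in GFP libraries.

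Single libraries of KO and WT varied more for some of these genes than for most others. The percentages and medians here are over genes that passed the filter on all 12 libraries. Some of these, such as Fosl1, are absent in KO and WT and have a ratio of 1 there, which makes the percentages and medians smaller. With 0.5 CPM added, the highest KO library was 5.38-fold above the lowest for Fosb, a ratio reached by 0.776% of genes, 3.30-fold for Klf6 (2.5% of genes) and 2.74-fold for Fosl2 (4.33%), where the median gene had 1.30-fold. In WT the ratio was 3.04-fold for Fos (1.14% of genes) and 2.92-fold for Fosb (1.28%), with a median gene at 1.21-fold. Jun varied little, 1.12-fold in KO and 1.12-fold in WT, and Egr1 1.14-fold in KO and 1.28-fold in WT. In OE the ratios of the 10 genes were 1.01-fold to 1.19-fold and in GFP 1.01-fold to 1.36-fold. The genes did not all share 1 order of the WT libraries. WT2 was the highest for Fos, Fosb, Fosl2, Junb and Ier2. WT1 was the highest for Jun, Jund, Klf6 and Egr1, with Egr1 in WT2 close to it.

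KO3 was at one end of the KO libraries for 8 of the 10 genes. It was above KO1 and KO2 for Fos, Fosb, Egr1 and Ier2 (4 of 10) and below both for Fosl2, Junb, Jund and Klf6 (4 of 10), where 40.3% of all genes tested were above and 31.2% below, shares close to those of the 10 genes. The 17 heat shock genes, of which only some are known to respond to digestion and heat, summed to 9693, 12480 and 8037 CPM in KO, against 8392, 9305 and 9635 CPM in WT. Hspa1b, an inducible member whose reads may be shared with its near copy Hspa1a, had 84.8, 139 and 54.3 CPM in KO, against 44.2, 36.9 and 110.3 CPM in WT. KO3 was lowest in KO for the heat shock sum and for Hspa1b, and highest for Fos. WT3 was highest in WT for the heat shock sum and for Hspa1b, and WT2 for Fos. Hspb1, another of the 17 (values below), was instead highest in KO3 among KO libraries, as Fos was, and narrowly highest in WT2 among WT libraries. The part of isolation stress in these values was not tested.

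The 13 macrophage markers summed to 64.6, 74.7 and 22.6 CPM in KO, against 5.78, 10.1 and 36.8 CPM in WT. Klf6 and Fosl2 were also highest in KO1 and KO2. In WT the marker sum was highest in WT3, where Klf6 was 4.94 CPM, within the other WT libraries. Fosl2 was lowest of WT in WT1, as the marker sum was. The sum was 68.3 to 76.9 CPM in OE and 79.9 to 88.6 CPM in GFP, almost all of it Cd68 (66.3 to 74.9 CPM in OE and 79.2 to 87.7 CPM in GFP), while Adgre1 was at most 0.121 CPM in OE and at 0 in GFP. Of the 10 macrophage markers tested in KO against WT, 0 passed in edgeR (1.71% of all genes). Before adjustment 3 had p below 0.05 (13.9% of all genes), and DESeq2 called 1, Lyz2 (5.26% of all genes). The 12 endothelial markers summed to 90.6, 82.6 and 37.9 CPM in KO, against 35.0, 49.6 and 58.6 CPM in WT, and the 12 stellate cell markers to 29.7, 30.3 and 20.985 CPM in KO, against 7.07, 6.99 and 13.3 CPM in WT. Both sums were lowest in KO3 among the KO libraries, as Klf6 and Fosl2 were. In edgeR 0 of 12 endothelial markers passed, and 1 of 3 stellate markers tested, Reln, was higher in KO (log2 fold change 1.65 ± 0.24, adjusted p = 0.027). The part of other cell types in the spread of Klf6 and Fosl2 among KO libraries was not tested.

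**Figure D4:**
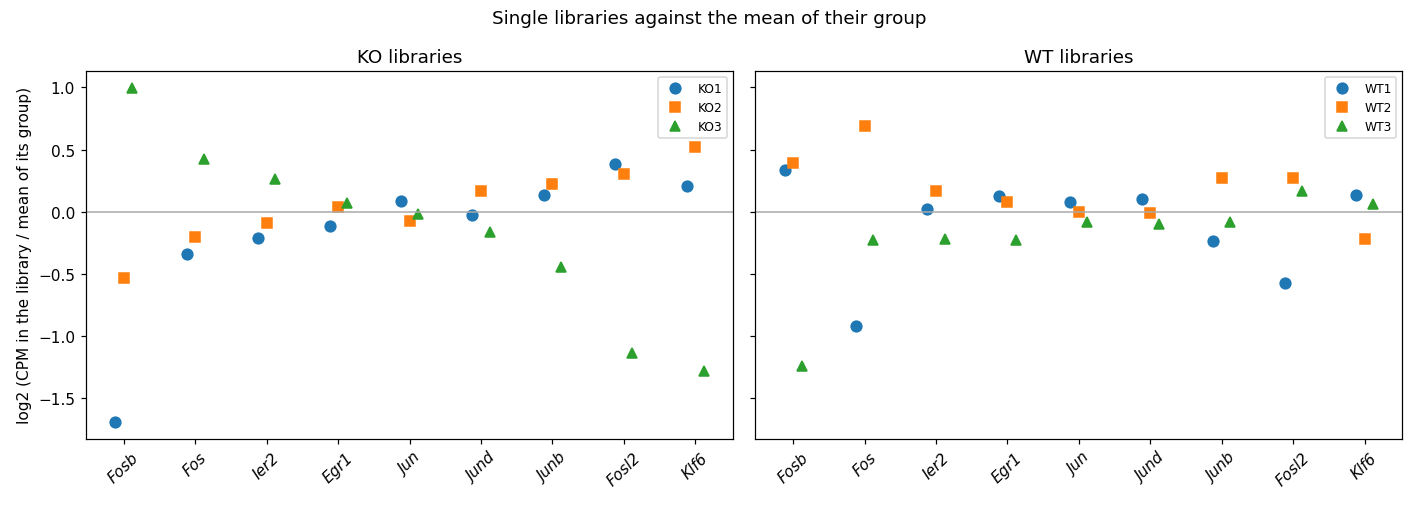
Log2 ratio of the CPM of each single library to the mean of its group, for KO (left) and WT (right), with genes ordered from those highest in KO3 to those lowest in it. KO3 (green triangles) is above the other KO libraries for Fosb, Fos, Ier2 and Egr1 and below them for Jund, Junb, Fosl2 and Klf6, and WT2 (orange squares) is highest for Fos.

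Loss and gain of Cebpa were compared in 1 fit of all 12 libraries, with 1 dispersion per gene although KO and WT libraries spread more. The KO effect (against WT) was subtracted from the OE effect (against GFP). That difference passed for 7 of 10 genes, where 54.1% of 15326 genes passed. It was 1.78 ± 0.13 for Egr1 (edgeR, adjusted p = 3.73e-07), which was higher in OE and had values below WT in KO. It was 0.69 ± 0.09 for Jun (adjusted p = 5.65e-05) and 1.14 ± 0.41 for Fosl2 (adjusted p = 0.0359). It was -1.10 ± 0.13 for Jund (adjusted p = 1.73e-05), -0.69 ± 0.23 for Junb (adjusted p = 0.0228) and -1.77 ± 0.44 for Klf6 (adjusted p = 0.00476). For Ier2 it was -1.35 ± 0.19 (adjusted p = 7.76e-05), where both effects had a negative sign and that of OE was the larger. Fos (-0.60, adjusted p = 0.333) and Fosb (1.41, adjusted p = 0.17) did not pass, and Fosl1 could not be estimated, with no count in KO and WT.

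The order of the 4 groups was steady for some genes and turned with the scale for others. Fosl1 and Fosl2 ran OE above GFP above KO and WT, which overlapped, and Fos ran WT and KO, overlapping, above GFP above OE, under TMM, library totals and TPM alike. Jun ran WT, KO, OE and GFP in falling order of TMM-scaled CPM, WT, OE, KO and GFP with library totals, and OE, WT, KO and GFP in TPM (means of 123, 106, 88.5 and 72.4 TPM). Jund was highest in GFP on all 3 scales, but OE was lowest with TMM and second with library totals and TPM. Fosb, Junb, Egr1 and Ier2 were higher in KO and WT than in OE and GFP with TMM. In TPM the range of KO or WT overlapped that of OE or GFP for each of them. By the same 12 libraries, the profiles closest to Fos were those of Ugt2b5, Ugt3a2, Rida, Apoc4 and Ndrg2 (mean absolute difference of centred log2 CPM 0.26 to 0.3, median of 8637 genes 2.62). Those closest to Jun were Cers2, Insr, Hnrnph3, Flad1 and Lamp2 (0.069 to 0.0869, median 0.924), and those closest to Egr1 were Abhd18, Hibadh, Agpat2, Ceacam1 and Tmem220 (0.122 to 0.162, median 1.39). These distances are descriptions, since the 12 libraries come from only 2 experiments.

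Other genes of the pathway were counted from the same tests. Over all genes tested in KO against WT, edgeR called 1.71% and DESeq2 5.26%, and 13.9% had p below 0.05 before adjustment. In OE against GFP 43.9% of all genes rose and 42.7% fell, beside which the counts of each list stand. Among partners of AP-1 (other basic leucine zipper proteins), 0 of 10 passed in KO against WT in edgeR (0 with p below 0.05 before adjustment, 0 in DESeq2, median log2 fold change -0.0279). In OE against GFP 7 rose and 4 fell of 12 (median 0.349, all genes 0.00526). Atf3, a stress-induced partner of Jun, had 91.9, 83.5 and 86.6 CPM in OE, against 23.9, 25.3 and 24.4 CPM in GFP (log2 fold change 1.81 ± 0.04, adjusted p = 1.35e-14). Jdp2, which pairs with Jun and represses it, fell by 1.90 ± 0.10 (adjusted p = 2.35e-10), and Maf rose by 2.21 ± 0.13 (adjusted p = 4.99e-10). Of the other immediate early genes, 0 of 20 passed in KO in edgeR (5 with p below 0.05 before adjustment, where 13.9% of all genes had this, median 0.197), and DESeq2 called Ier5 higher and Nr4a1 lower. Nr4a1, an orphan receptor, had 2.09, 2.03 and 4.65 CPM in KO, against 5.64, 11.1 and 5.74 CPM in WT (adjusted p = 0.216). In OE 12 rose and 13 fell of 29 (median 0.0173). Ccn2, a matricellular target of YAP, had 8.73, 8.16 and 8.66 CPM in OE, against 590, 632 and 591 CPM in GFP (fell by 6.17 ± 0.05, adjusted p = 6.55e-19). Trib1, a pseudokinase known to drive degradation of CEBPA, rose by 4.20 ± 0.03 (adjusted p = 7.77e-19), and Btg1, an antiproliferative gene, by 2.14 ± 0.03 (adjusted p = 3.21e-16).

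Of upstream signalling genes, 0 of 30 passed in KO in edgeR (4 with p below 0.05 before adjustment, close to the 13.9% of all genes, and 0 in DESeq2), and 15 rose and 14 fell of 32 in OE (median -0.00559, all genes 0.00526). The kinase gene Mapk3, for ERK1, fell by 1.74 ± 0.04 (adjusted p = 8.49e-15), while Map2k1, for its activator MEK1, rose by 1.42 ± 0.03 (adjusted p = 9.97e-15) and Met, the receptor of hepatocyte growth factor, by 1.36 ± 0.03 (adjusted p = 2.42e-14). Of feedback genes, which switch the pathway off, 0 of 20 passed in KO in edgeR (5 with p below 0.05 before adjustment, against 13.9% of all genes). DESeq2 called 2 of them (Dusp8 and Spred1, both higher), against 5.26% of all genes. In OE 13 rose and 9 fell of 24 (median 0.142). Spred1, an inhibitor of RAS signalling, rose by 2.58 ± 0.04 in OE (adjusted p = 1.17e-16), and in KO its log2 fold change was 0.84 ± 0.16 (adjusted p = 0.0651). Dusp4, a MAP kinase phosphatase, rose by 1.92 ± 0.04 (adjusted p = 4.72e-15) and Dusp3, another phosphatase, fell by 2.09 ± 0.03 (adjusted p = 9.47e-17). Of heat shock genes, 0 of 17 passed in KO in edgeR (1 with p below 0.05 before adjustment) and 1 in DESeq2 (Hspb1, lower), and 10 rose and 6 fell in OE (median 0.347). Hspb1, a small heat shock protein, fell by 2.42 ± 0.03 in OE (adjusted p = 6.14e-17), and in KO it had 9.35, 9.66 and 29.8 CPM, against 68.2, 69.0 and 45.4 CPM in WT (adjusted p = 0.117).

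Of genes known as targets of AP-1, 1 of 11 passed in KO (median 0.45, all genes 0.00744). This was Spp1, which encodes osteopontin, with 508, 678 and 569 CPM in KO, against 7.07, 18.1 and 12.5 CPM in WT (log2 fold change 5.56 ± 0.37, adjusted p = 0.00134). It is also a cholangiocyte marker, of which 2 of 4 tested were higher in KO. In OE 12 rose and 12 fell of 25 (median 0.0613). The 3 with the lowest p all fell, the epithelial keratins Krt18 by 2.79 ± 0.04 and Krt8 by 2.91 ± 0.04, and Ccl2 by 5.03 ± 0.07 on the log2 scale. In GFP against WT 21 targets were tested, of which 10 (Plau, Plaur, Timp1, Ccl2, Areg, Itga2, Vim, Lif, Procr and Tnc) passed the filter on low counts only through GFP so that their direction was set by the filter. Vim, a mesenchymal filament, had 21827, 22167 and 20541 counts in GFP, against 1, 2 and 8 in WT, and Ccl2, a monocyte chemokine, had 3004, 3113 and 2941 counts in GFP, against 1, 0 and 1 in WT. The 11 targets that also passed the filter in KO against WT were all higher in GFP (11 of 11 with TMM and with library totals). Of all 11695 genes so filtered, 37.4% were higher with TMM and 71.8% with library totals. The median log2 fold change of the 11 was 3.17 with TMM (those genes -0.107) and 4.41 with library totals (those genes 1.13).

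Among the other immediate early genes, the 20 that passed both filters were 10 higher and 7 lower in GFP against WT with TMM, where 45.1% of the 11695 genes were lower, and 17 higher and 1 lower with library totals, where 17.7% of them were lower. Another 7 passed only through GFP. Myc, a growth regulator, had 65.2, 63.3 and 64.5 CPM in GFP, against 3.78, 4.01 and 3.07 CPM in WT. The 17 heat shock genes turned with the scaling, with 2 higher and 11 lower under TMM, and with 12 higher and 0 lower under library totals, where the share higher (70.6%) was close to that of all genes. Of the 10 genes themselves, Fos, Fosb, Jun, Junb, Egr1 and Ier2 were lower and Fosl1, Fosl2, Jund and Klf6 higher in GFP under both scalings, with the exceptions given above for Junb and Jund.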

How the data were processed

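Poly(A) RNA of 12 libraries of primary mouse hepatocytes (3 KO, 3 WT, 3 OE, 3 GFP) had been sequenced from a stranded kit. Per the submitters' processing notes, the authors used Trimmomatic 0.36, STAR 2.5.1 and RSEM 1.2.22 with build mm10, and the notes also list Picard 1.84 and DESeq2 with no stated step. The deposited tables give RSEM expected counts per gene, which are estimated reads not scaled to depth, and TPM, which the authors' software scaled for effective length and to a fixed sum per library.

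Expected counts were rounded, filtered (filterByExpr, minimum count 10), scaled by TMM and tested with the quasi-likelihood test of edgeR 4.0.16 in R 4.3.3, on the 6 libraries of each comparison, or all 12 for the difference of effects. Genes were called at a Benjamini-Hochberg adjusted p under 0.05 over all genes tested, and adjusted p values in the text are of this test unless another tool is named. The script was tested on simulated data. Levels were CPM scaled by TMM over all 12 libraries. Alternatives were DESeq2 1.42.0, RLE size factors, library totals, all genes with a count, a filter that asks for 1 CPM in at least 3 of the libraries with 5 CPM on average, limma 3.58.1 on log2 TPM with 1 or 0.1 added (genes averaging at least 1 TPM), the fit of all 12 libraries, the replicate number as a block, and each library left out.

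The biological coefficient of variation was 20.42% in KO and WT, 4.041% in OE and GFP and 10.55% in GFP and WT, so that smaller changes could be called in the virus experiment. In the fit of all 12 libraries it was 13.86%. Errors in KO against WT then draw on the virus libraries too, and more genes are called there. No 2 libraries of a group agreed within sampling noise (chi-square per degree of freedom at least 2.678). Scaling moved the median of all genes in GFP against WT (log2 0.129 with TMM, 1.36 with library totals), and library totals are therefore given beside TMM there.

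The text names all 10 members, of each pathway list up to the 3 genes with the lowest p per comparison, and for Fos, Jun and Egr1 the 5 closest profiles among genes with a mean of at least 10 CPM. Genes outside this rule were named after their values were seen. Counts over genes that also passed the filter in KO against WT were chosen after seeing the data. Members and lists were chosen with earlier results of these data known. Promoter sequences are from RefSeq.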

Additional observations from a re-analysis of the deposited data

Results flagged for a closer look

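For 7 genes the effect of OE against GFP and the effect of KO against WT differed in the fit of all 12 libraries (edgeR, adjusted p under 0.05), where 54.1% of genes tested did. The OE effect minus the KO effect, on the log2 scale, was 1.14 for Fosl2, 0.69 for Jun and 1.78 for Egr1. It was -0.688 for Junb, -1.10 for Jund, -1.35 for Ier2 and -1.77 for Klf6. The calls of Jun, Jund, Egr1, Ier2 and Klf6 held under 21 of 21 settings, with adjusted p values up to 0.000556, 0.00109, 5.37e-06, 0.00171 and 0.0499. That of Fosl2 held under 13 (adjusted p up to 0.0955) and that of Junb under 15 (up to 0.235).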

How the results depend on the processing

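In KO against WT, 0 of the 10 genes were called higher and 0 lower, against 1 higher with DESeq2, with the fit of all 12 libraries and without KO replicate 3 (Klf6 each time), and 1 lower with DESeq2 and with the fit of all 12 libraries (Egr1 each time). Leaving out each library in turn gave 0 to 1 called higher and 0 called lower. The log2 fold change of Jund reversed with library totals (-0.00799) and without KO replicate 2 (-0.0594, with values up to 0.133 without another library), and that of Klf6 in OE against GFP reversed with library totals (0.0348) and in limma (0.222 and 0.223). The causes were not tested. With other scalings 34 of the group levels moved by more than 1 SD, and by counts in place of TPM (chosen after seeing the data) 27 of the family shares and ratios did. Of the other values of single genes under the alternatives, 592 kept direction and side of the threshold, 9 passed it and 25 lost it.

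Correlations of same-numbered deviations were -0.289 to 0.0056 in KO and WT, against -0.173 to 0.171 for other numbers. They were -0.0571 to 0.0494 in OE and GFP, against -0.0751 to 0.112. Same-numbered libraries were thus not more alike than others. With 3 libraries per group these values cannot show whether the numbers pair samples. With the number as a block, 31 genes were higher and 56 lower in KO, against 82 and 121 without it, and the counts of the 10 genes called did not change in any comparison.

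The count over all genes in KO against WT was 276 higher and 347 lower with DESeq2, 132 and 192 with no filter, 30 and 61 with the stricter filter, 30 and 74 or 25 and 49 in limma, 587 and 618 in the fit of all 12 libraries, and 15 and 27 (without WT1) to 207 and 189 (without KO3). In GFP against WT 6186 were higher and 5282 lower with TMM, against 10410 and 2074 with library totals. In OE against GFP these were 6531 and 6362 with TMM, against 7085 and 4046 in limma on log2(TPM + 1).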

Other observations

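Fos in GFP3 had 12.2 TPM, against 7.18 and 7.96 TPM in GFP1 and GFP2, while its counts were 206, against 188 and 215. The share of Fos in its family in GFP3 (28.2% by TPM) rests on that value. The zero counts of Fosl1 in KO and WT stood beside 612 counts in GFP and 2021 in OE.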
